A study of Mus musculus with 6 samples.

Results

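The 10 genes described here, Klf2, Klf3, Klf4, Klf5, Klf6, Klf7, Klf9, Klf10, Klf13 and Klf15, encode Krüppel-like factors, and were taken by symbol from the 19938 genes of the deposited array table. Each had a single probe set carrying only its own symbol, so no choice between probe sets arose. The arrays were made from bone marrow stromal cells of 6-month-old C57BL/6 mice in adipogenic culture. One group of 3 arrays came from wild-type mice (WT) and the other group of 3 arrays from mice whose labels give a knockout of miR-188, a microRNA (KO). Both groups grew in α-MEM with 10% fetal calf serum, 0.5 mM 3-isobutyl-1-methylxanthine, which raises cyclic AMP, insulin at 5 µg/ml and dexamethasone, a glucocorticoid, at 1 µM. The series asks how miR-188 bears on the choice of these cells between the osteoblast and the adipocyte fate. The labels call the replicates biological without naming separate animals or cultures, so p-values measure only the spread between these samples, which may be technical. The sources used here give neither the days of induction nor how much of the locus was deleted.

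Krüppel-like factors are transcription factors with zinc fingers at the carboxy end that bind GC-rich DNA and the CACCC sequence. Their amino ends differ and recruit coactivators or corepressors, so that members can act in opposite directions at similar sites. In adipocyte precursors some members are known to promote differentiation (KLF4, KLF5, KLF6, KLF9, KLF13 and KLF15) and others to hold it back (KLF2, KLF3 and KLF7). Several of them act on the gene of PPARγ, the transcription factor on which adipocyte formation depends. KLF9 and KLF15 are also induced by glucocorticoids, and KLF10 was first described as an early response gene of TGF-β in osteoblasts.

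The RNA that separates the groups by label is miR-188, whose mature arms are shown with the seed (bases 2 to 8, which pair with target RNAs) in capitals. Both are from RefSeq on GRCm38.p6, on the minus strand of chromosome X, at chrX:7248031-7248051 for the 5p arm and chrX:7247992-7248012 for the 3p arm.
mmu-miR-188-5p: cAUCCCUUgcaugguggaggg
mmu-miR-188-3p: cUCCCACAugcaggguuugca
The seeds of the arms differ. Sites for either seed in the Klf transcripts were not searched here.

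Promoter windows of 250 bases before the annotated start were present for 8 of the 10 genes in the same RefSeq set, and Klf5 and Klf10 were not among them. Each window was searched on both strands for the CACCC box (CACCC or GGGTG), the GC box (GGGCGG or CCGCCC) and the MEF2 box, the site of the MEF2 factors. A CACCC box lay in 6 of the 8 windows and in 52% of all 32851 windows of that length. A GC box lay in 7 of the 8 windows, and in 32.7% of all. The member windows had a GC content of 59.2% to 78.4%, against a median of 52.4% over all windows. A MEF2 box lay in the window of Klf2, and in 2.92% of all windows. The windows of Klf2 (chr8:72318812-72319061, plus strand) and Klf4 (chr4:55532476-55532725, minus strand) are shown because the first holds the MEF2 box and the second belongs to one of the genes called below, with every box in capitals.
Klf2: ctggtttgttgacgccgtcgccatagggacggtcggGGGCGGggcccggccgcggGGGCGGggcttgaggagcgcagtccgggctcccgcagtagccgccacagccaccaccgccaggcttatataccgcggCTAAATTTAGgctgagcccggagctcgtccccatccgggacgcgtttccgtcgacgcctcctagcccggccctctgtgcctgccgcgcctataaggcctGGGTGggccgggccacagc
Klf4: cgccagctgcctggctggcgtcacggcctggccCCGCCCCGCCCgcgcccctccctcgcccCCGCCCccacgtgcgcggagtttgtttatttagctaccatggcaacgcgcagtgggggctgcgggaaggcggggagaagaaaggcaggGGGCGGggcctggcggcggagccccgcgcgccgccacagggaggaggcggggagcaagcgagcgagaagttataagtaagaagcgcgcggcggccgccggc
In Klf2 the MEF2 box CTAAATTTAG lay 118 to 109 bases before the start, with 2 GC boxes and 1 CACCC box and no overlap between kinds of box. Klf4 held 4 GC boxes, of which the farthest pair share a base, and no CACCC or MEF2 box. One GC box overlapped a CACCC box in Klf3 and in Klf13. Of the 3 windows of Pparg, 2 held CACCC and GC boxes. The third, farthest downstream and with a GC content of 40.8%, held none of the boxes. These matches describe letters and not binding.

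Across all genes, 1457 of 19938 (7.31%) passed the test of KO against WT (adjusted p under 0.05), with 666 higher and 791 lower in KO. A second quantile normalization turned that split to 862 higher and 639 lower, and cyclic loess to 859 and 667. Every difference below is the KO mean less the WT mean in log2 units, with limma p-values under Benjamini-Hochberg control across the whole table. A background level of 6.83 was set by the 95th percentile of olfactory receptor genes. Of 9 markers of bone marrow stroma, 8 lay above background, with Lepr below it. Passing that level does not settle cell identity, since some markers of T cells, B cells and neutrophils passed it as well. The adipocyte hormone gene Adipoq and the pan-leukocyte gene Ptprc lay below background. Their means were 5.22 and 6.07 in KO and 5.28 and 6.13 in WT. Above background lay 4 of 6 adipocyte and 1 of 7 macrophage markers. So did 2 of 4 T cell, 1 of 3 B cell and 1 of 5 neutrophil markers.

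Of the 10 Krüppel-like factor genes, Klf10 and Klf4 were higher in KO and the other 8 did not pass the test. That is 2 of 10 higher, where 3.34% of all genes were higher, and 0 of 10 lower, where 3.97% were lower. At an unadjusted p under 0.05 in limma, 5 of the 10 were higher and Klf6 was lower, where 9.43% of all genes were higher and 11.2% lower. All 10 genes lay above background, as did 13090 genes in all, of which 10.7% were called in either direction. The differences of the 10 ran from -0.11 for Klf6 to 0.39 for Klf10, with a median of 0.09, against a median of 0.0046 over all genes. Of the 10, 9 differences were above 0 and that of Klf6 was below. Over all genes 10428 of 19938 were above 0, and of the genes above background 6423 of 13090. The KO and WT values did not overlap in 6 of the 10 genes, and in 24.9% of all genes. KO lay above WT in Klf4, Klf7, Klf9, Klf10 and Klf13 (5 of 10, and 11.4% of all genes) and below WT in Klf6 (1 of 10, and 13.5% of all genes). Levels of different probe sets are not compared, since probes differ in brightness.

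**Figure D1:**
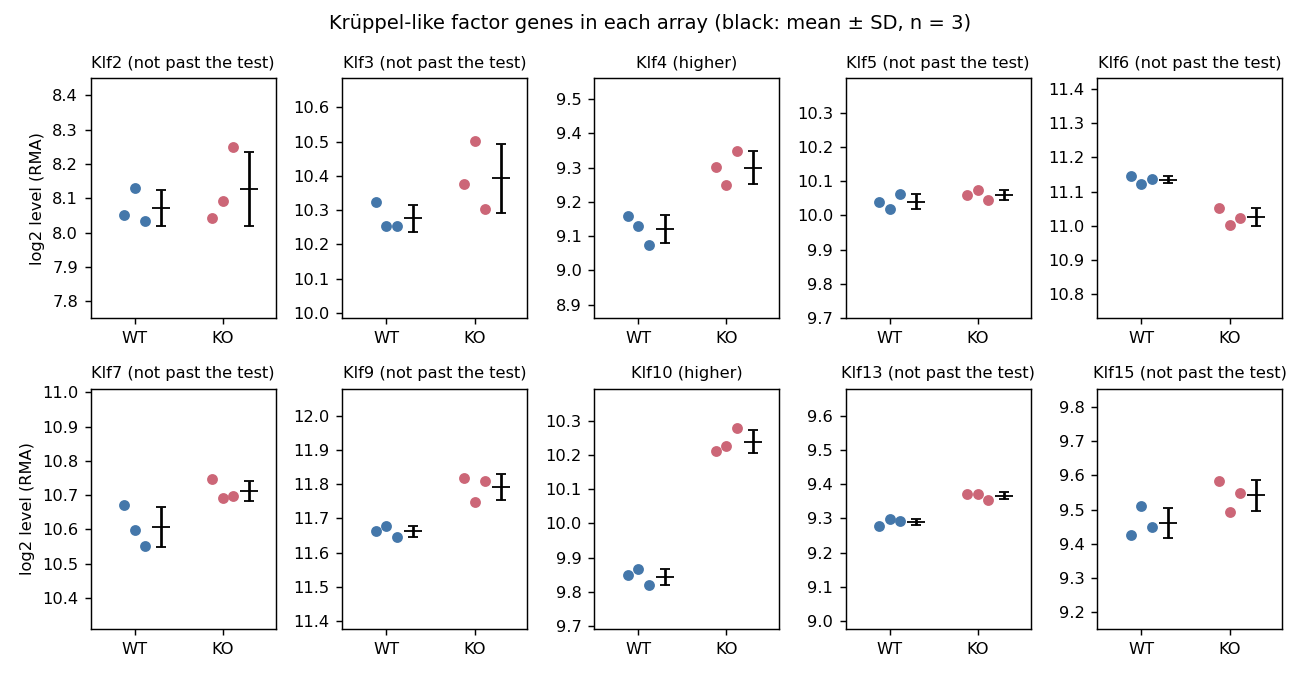
Log2 level (RMA, vertical axis) of each of the 10 genes in the 3 WT (blue) and 3 KO (red) arrays, with the mean and SD of each group in black; every panel spans the same range of log2 units. The groups stand widest apart in Klf10, at 9.84 against 10.24, and overlap in Klf2, Klf3, Klf5 and Klf15.

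Klf10 encodes a transcriptional repressor that TGF-β and other growth factors induce rapidly. Its level was 9.85, 9.87 and 9.82 in the WT arrays and 10.21, 10.23 and 10.28 in the KO arrays. The lowest KO array lay 0.35 above the highest WT array, a gap several times wider than the spread within either group. The mean was 9.84 ± 0.02 for WT and 10.24 ± 0.03 for KO (SD over 3 arrays). Klf10 rose by 0.39 (SE 0.03, 95% interval 0.31 to 0.48, limma adjusted p = 0.00305), or 1.31-fold. Among the 666 genes that were higher in KO, it stood at place 113 by size of the difference. The rise passed the test in each of the 6 fits that left out 1 array (adjusted p = 0.0159 to 0.0347, against 0.000467 to 0.0510 over all alternatives).

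Klf4 encodes a factor that, together with the product of Egr2, activates Cebpb early in adipogenesis. Its level was 9.16, 9.13 and 9.08 in the WT arrays and 9.30, 9.25 and 9.35 in the KO arrays. Every KO array lay above every WT array, by a gap of 0.09 that is about as wide as the spread within each group. Klf4 rose from a mean of 9.12 ± 0.04 to one of 9.30 ± 0.05 (SD over 3 arrays), a difference of 0.18 (SE 0.04, 95% interval 0.08 to 0.28, limma adjusted p = 0.0470), or 1.13-fold. The call stood close to the threshold and was lost in every fit on 5 arrays. Without WT replicate 1, 2 or 3 the adjusted p was 0.0930, 0.100 or 0.184, and without KO replicate 1, 2 or 3 it was 0.116, 0.0628 or 0.131.

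The partner and the reported target of KLF4 were called in the same direction. Egr2 had levels of 7.60, 7.54 and 7.59 in WT and 7.85, 7.86 and 7.95 in KO, and rose by 0.31 (SE 0.04, limma adjusted p = 0.00880). Cebpb, which encodes the early adipogenic factor C/EBPβ, had levels of 10.29, 10.28 and 10.23 in WT and 10.46, 10.41 and 10.47 in KO. It rose by 0.18 (SE 0.03, adjusted p = 0.0269). For both genes the KO arrays lay above the WT arrays without overlap. Of the fits on 5 arrays, Cebpb kept its call in the one that dropped KO replicate 2 (adjusted p = 0.0458) and lost it in the others (0.0615 to 0.123). Egr2 lost its call where WT replicate 3 was dropped (adjusted p = 0.0596). Cebpd, the companion of Cebpb in early adipogenesis, differed by 0.17 (95% interval 0.05 to 0.30, adjusted p = 0.107) and did not pass.

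Among the other members known to promote adipogenesis, Klf9 and Klf6 came nearest to the threshold, in opposite directions. Klf9, a glucocorticoid-induced factor that acts on Pparg in the middle phase of differentiation, had levels of 11.66, 11.68 and 11.65 in WT and 11.82, 11.75 and 11.81 in KO. The difference of 0.13 (95% interval 0.05 to 0.21, limma adjusted p = 0.0739) did not pass, although the groups did not overlap. It passed after quantile normalization again (0.18, adjusted p = 0.0425), after cyclic loess (0.17, adjusted p = 0.0421) and under 3 other settings, against 0.0143 to 0.254 over all alternatives. Klf6, which represses the preadipocyte gene Dlk1, had levels of 11.15, 11.12 and 11.14 in WT and 11.05, 11.00 and 11.02 in KO. It was the one member with KO below WT in every array, by -0.11 (95% interval -0.18 to -0.03, adjusted p = 0.0959). The size depended on the scaling, at -0.07 after quantile normalization again (adjusted p = 0.318), and the adjusted p ran from 0.0210 to 0.318 over all alternatives. Dlk1 differed by 0.05 (95% interval -0.06 to 0.15, adjusted p = 0.620), with overlapping groups.

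Klf5, which C/EBPβ and C/EBPδ induce and which in turn activates Pparg, had the smallest difference of the 10. Its level was 10.04, 10.02 and 10.06 in WT and 10.06, 10.08 and 10.05 in KO, so the groups overlapped. The difference of 0.02 had a 95% interval of -0.05 to 0.09 (limma adjusted p = 0.780). Pparg itself had levels of 9.08, 9.21 and 9.08 in WT and 7.84, 7.72 and 8.02 in KO. It fell by 1.27 (SE 0.08, adjusted p = 0.00113), with no overlap between the groups.

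Klf13, a compact factor that recruits the SIN3 corepressor and is reported to act on Pparg, had levels of 9.28, 9.30 and 9.29 in WT and 9.37, 9.37 and 9.35 in KO. The values were tight and did not overlap, and the difference of 0.08 (95% interval 0.01 to 0.15, limma adjusted p = 0.201) did not pass. Klf15, which glucocorticoids induce and which activates the insulin-responsive glucose transporter gene Slc2a4 in fat and muscle, had levels of 9.43, 9.51 and 9.45 in WT and 9.58, 9.49 and 9.55 in KO. KO replicate 2 lay below WT replicate 2, and the difference of 0.08 (95% interval -0.02 to 0.17, adjusted p = 0.336) did not pass. Slc2a4 differed by 0.13 (95% interval -0.01 to 0.26, adjusted p = 0.285). Of 6 reported KLF15 targets only Adm, the gene of the vasodilator peptide adrenomedullin, was called. That is 1 of 6, where 7.31% of all genes were called in either direction. Adm rose by 0.45 (SE 0.04, adjusted p = 0.00349) and passed in every fit without 1 array. Its WT mean was 9.62 ± 0.04 and its KO mean 10.07 ± 0.05 (SD over 3 arrays). The median of the 6 was 0.03.

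None of the members known to restrain adipogenesis passed the test. Klf2, which represses Pparg in preadipocytes and is best known from endothelium and T cells, had levels of 8.05, 8.13 and 8.03 in WT and 8.04, 8.09 and 8.25 in KO. KO replicate 3 stood above the other 5 arrays, which shared 1 range. The difference of 0.06 (95% interval -0.09 to 0.20, limma adjusted p = 0.672) turned to -0.0044 without that array.

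Klf3, which represses Cebpa through the corepressor CtBP, had levels of 10.32, 10.25 and 10.25 in WT and 10.38, 10.50 and 10.30 in KO. KO replicate 2 was the highest array, and KO replicate 3 lay below WT replicate 1. The difference of 0.12 (95% interval -0.02 to 0.25, limma adjusted p = 0.307) did not pass, and was 0.06 without KO replicate 2. Cebpa differed by 0.01 (95% interval -0.08 to 0.10, adjusted p = 0.924). The CtBP genes Ctbp1 and Ctbp2 differed by 0.01 and -0.05 (adjusted p = 0.914 and 0.580).

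Klf7, reported to inhibit adipogenesis and adipokine expression, had levels of 10.67, 10.60 and 10.55 in WT and 10.75, 10.69 and 10.70 in KO. The groups stood 0.02 apart, less than the range within WT. The difference of 0.10 (95% interval 0.01 to 0.20, limma adjusted p = 0.212) did not pass. Array weights moved it to 0.14 (adjusted p = 0.0346, the lowest of alternatives that reached 0.502), a setting in which WT replicate 3 had a weight of 7.41 and the other 5 arrays 0.524 to 1.19.

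**Figure D2:**
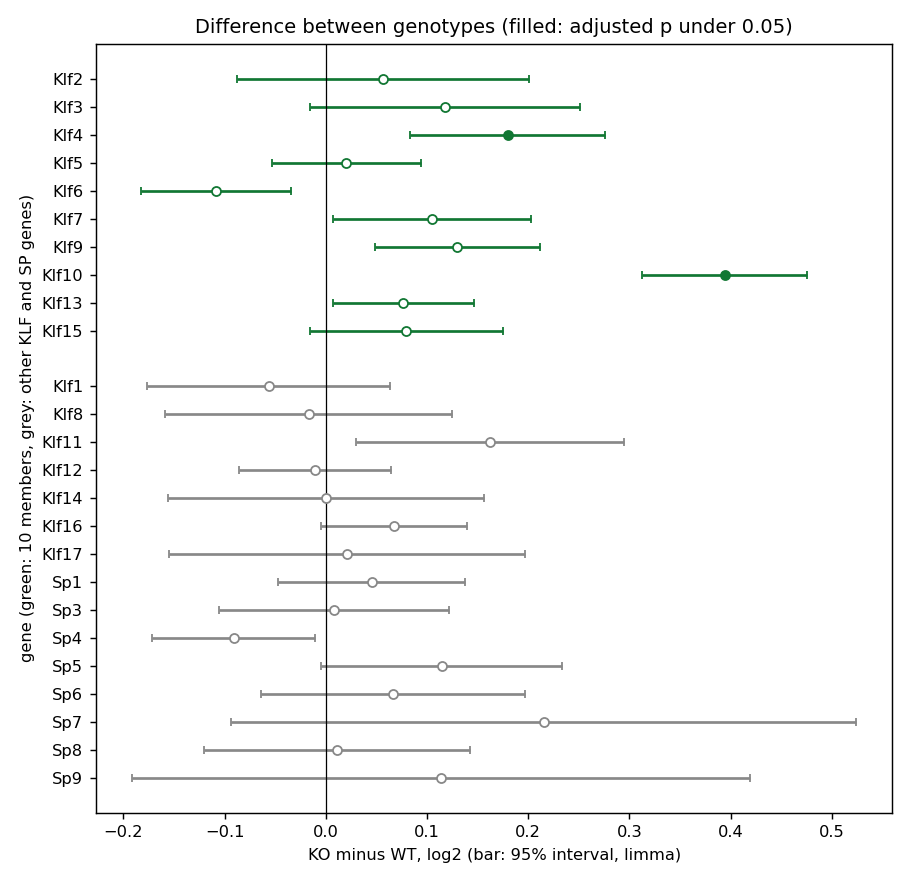
KO minus WT on the log2 scale (horizontal axis) with the 95% interval from limma, for the 10 members (green) and 15 other KLF and SP genes (grey); filled points have an adjusted p under 0.05. The filled points are Klf4 at 0.18 and Klf10 at 0.39, and the interval of Klf10 lies above the upper bound of every member but itself.

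Of 15 measured genes for other Krüppel-like and SP factors, 0 were higher, 0 lower and 15 not past the limma test, with a median difference of 0.02, and Sp2 was not analysed here. At an unadjusted p under 0.05, 1 of the 15 was higher (Klf11) and 1 lower (Sp4), which is near the shares of 9.43% and 11.2% over all genes. Klf11, a close relative of Klf10 and likewise TGF-β-inducible, had levels of 9.58, 9.61 and 9.53 in WT and 9.80, 9.62 and 9.79 in KO. Its difference of 0.16 (95% interval 0.03 to 0.29, adjusted p = 0.154) did not pass, and KO replicate 2 stood close to the WT arrays. The gene passed where that array was dropped (0.22, adjusted p = 0.0464) and under array weighting (0.20, adjusted p = 0.0244), against up to 0.412 over all alternatives. Klf16 differed by 0.07 (adjusted p = 0.278) and Klf12, a CtBP-binding repressor, by -0.01 (adjusted p = 0.891). Klf14, a regulator of genes in fat, had means of 8.98 in both groups.

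Cofactors and ubiquitin ligases reported for these factors were mostly not past the test. Of 11 measured cofactors, 2 were higher and 9 not past, with a median of 0.02. Over all genes, 3.34% were higher and 3.97% lower. Fhl3, a LIM-domain protein that binds KLF3, had levels of 9.43, 9.37 and 9.35 in WT and 9.71, 9.66 and 9.63 in KO. It rose by 0.28 (SE 0.04, limma adjusted p = 0.0101), and lost that call where WT replicate 3 was dropped (adjusted p = 0.0662). Ep300, the acetyltransferase p300, rose by 0.26 (SE 0.05, adjusted p = 0.0352), a call that no fit without 1 array kept (adjusted p = 0.0583 to 0.148). Of 6 ligase genes (Wwp1, Fbxw7, Smurf1, Smurf2, Itch and Siah1a) 0 passed with limma, with differences of -0.19 to 0.10. At an unadjusted p under 0.05, 1 of them was higher (Smurf1) and 2 lower (Itch and Siah1a), where 9.43% of all genes were higher and 11.2% lower.

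**Figure D3:**
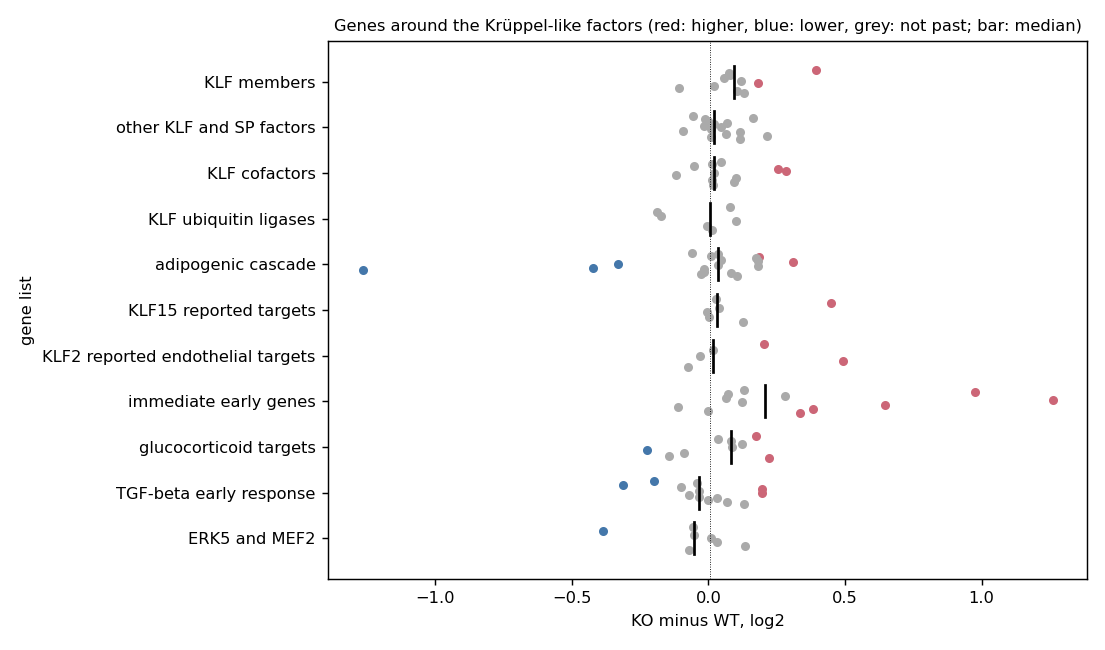
KO minus WT on the log2 scale (horizontal axis) for each measured gene of 11 lists around the Krüppel-like factors, red where higher, blue where lower and grey where not past the test; black bars are list medians and the dotted line is the median of all genes. The members have a median of 0.09, the immediate early genes the highest median at 0.21, and Pparg is the leftmost point at -1.27.

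Genes upstream of single members, and genes that respond to the same signals, were read beside those members. For Klf10, 13 measured genes were read, comprising TGF-β ligands, receptors and SMADs as well as early response genes. Of these 13, 2 were higher, 2 lower and 9 not past the test, so the count does not describe the response alone. Their median was -0.03. The shares over all genes were 3.34% higher and 3.97% lower. The signal transducer Smad3 rose by 0.20 (limma adjusted p = 0.0411) and the feedback inhibitor Smad7 by 0.20 (adjusted p = 0.0495). Of the fits on 5 arrays, both kept their calls in the one that dropped KO replicate 2 (adjusted p = 0.0290 and 0.0342) and lost them in the others (0.100 to 0.155 and 0.104 to 0.178). The SMAD corepressor gene Skil fell by 0.31 (adjusted p = 0.0253) and the matricellular growth factor gene Ccn2 by 0.20 (adjusted p = 0.0336). Skil kept its call where KO replicate 1 or 2 was dropped and lost it in the other fits on 5 arrays (adjusted p = 0.0722 to 0.123). Ccn2 kept its call where KO replicate 1 was dropped (0.0625 to 0.143 in the others), and lost it after a second quantile normalization (adjusted p = 0.105) and cyclic loess (adjusted p = 0.0751). The ligand gene Tgfb1 differed by -0.07 (adjusted p = 0.324).

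Klf4 and Klf10 are themselves known as growth factor-induced early genes. Of 12 other immediate early genes, 5 were higher, 0 lower and 7 not past the limma test, with a median of 0.21. Over all genes, 3.34% were higher and 3.97% lower. KO lay above WT without overlap in 8 of the 12, and below it in Jun (-0.11, limma adjusted p = 0.0797). Such gaps were found in 11.4% and 13.5% of all genes. The AP-1 subunit gene Fosl1 rose by 1.26 (adjusted p = 0.000978), Egr1 by 0.97 (adjusted p = 0.000216), the stress-response gene Ier3 by 0.65 (adjusted p = 0.000978) and the orphan receptor gene Nr4a1 by 0.34 (adjusted p = 0.00643). These 4 passed in every fit without 1 array. The other called gene, the AP-1 subunit gene Junb, rose by 0.38 (adjusted p = 0.0146) and lost its call where WT replicate 3, KO replicate 1 or KO replicate 2 was dropped (adjusted p = 0.0881, 0.0597 and 0.0628).

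For the glucocorticoid-induced Klf9 and Klf15, 9 genes were read, comprising the receptor gene Nr3c1 and classic targets. Of these 9, 2 were higher, 1 lower and 6 not past the test, with a median of 0.08. The shares over all genes were 3.34% higher and 3.97% lower. KO lay above WT without overlap in 5 of the 9 and below it in 3, against 11.4% and 13.5% of all genes. Those below were Per1, Tsc22d3 (-0.14, limma adjusted p = 0.0702) and Sgk1 (-0.09, limma adjusted p = 0.167). Zbtb16 rose by 0.22 (limma adjusted p = 0.0234) and the phosphatase gene Dusp1 by 0.17 (adjusted p = 0.0234), while the clock gene Per1 fell by 0.23 (adjusted p = 0.0109). Of the fits on 5 arrays, Zbtb16 kept its call in the one that dropped KO replicate 2 (adjusted p of 0.0682 to 0.117 in the others). Dusp1 kept its call where replicate 2 of either genotype was dropped (0.0612 to 0.116 in the others), and Per1 lost its call where WT replicate 3 was dropped (adjusted p = 0.0705). Nr3c1 differed by 0.09 (95% interval 0.01 to 0.16, adjusted p = 0.209).

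For Klf2, whose promoter window holds the MEF2 box shown above, the ERK5 cascade and its MEF2 effectors are the known inducers. Of 7 such genes, 0 were higher, 1 lower and 6 not past the test, where 3.34% of all genes were higher and 3.97% lower. Map3k2, a kinase at the top of the ERK5 cascade, had levels of 9.49, 9.38 and 9.41 in WT and 8.99, 9.09 and 9.04 in KO. It fell by 0.39 (SE 0.04, limma adjusted p = 0.00629) and passed in every fit without 1 array. Mapk7, which encodes ERK5, differed by 0.01 (adjusted p = 0.912) and Mef2c by 0.13 (adjusted p = 0.113). Of 5 measured genes that KLF2 is reported to control in endothelium, 2 were higher and 3 not past, where 3.34% of all genes were higher. Thbd, the gene of the anticoagulant thrombomodulin, rose by 0.49 (adjusted p = 0.00866), and lost that call where WT replicate 3 was dropped (adjusted p = 0.0537). Edn1, the endothelin gene, rose by 0.20 (adjusted p = 0.0446) and kept its call on 5 arrays where WT replicate 1 was dropped (adjusted p = 0.0429, and 0.0982 to 0.183 in the others). KLF2 is known to raise Thbd and to lower Edn1.

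Over all genes, 3.34% were higher and 3.97% lower. Of the 18 genes of the adipogenic cascade, 2 were higher (Egr2 and Cebpb, above), 3 lower and 13 not past the test. Above background lay 16 of the 18, with Adipoq and Cd36 below it. The median of the 18 was 0.03, over a list that holds the preadipocyte gene Dlk1 beside promoters and adipocyte markers. Besides Pparg, the lower genes were lipoprotein lipase Lpl, which fell by 0.42 (limma adjusted p = 0.00964), and Fabp4, which encodes a carrier of fatty acids and fell by 0.33 (adjusted p = 0.0186). Lpl lost its call where replicate 3 of WT or of KO was dropped (adjusted p = 0.0537 and 0.0510). Fabp4 kept its call where replicate 2 of either genotype was dropped and lost it in the other fits on 5 arrays (adjusted p = 0.0663 to 0.101).

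Markers of other cells that express Krüppel-like factors were read beside the members. Of all genes 7.31% were called in either direction, and of the genes above background 10.7%. Of 7 macrophage markers 1 was called, Cd68, which fell by 0.19 (limma adjusted p = 0.0153), and the other 6, Ptprc and Adgre1 among them, lay below background. The summed linear level of all 7 was 2488 to 2517 in WT and 2240 to 2254 in KO, and that of the 6 without Cd68 was 378 to 413 and 394 to 401. Of 6 endothelial markers 1 was called, Kdr, which fell by 0.29 (adjusted p = 0.0425), while Pecam1, Tek and Emcn lay below background. The mean of Kdr went from 7.14 in WT to 6.85 in KO, close to the background level of 6.83. The summed level of the 6 was 632 to 663 in WT and 611 to 641 in KO. Without the brightest, Vwf, the other 5, Kdr among them, summed to 452 to 474 in WT and 422 to 451 in KO. Of 4 osteoclast markers 1 was called, Ctsk, which rose by 0.16 (adjusted p = 0.0466), with Calcr below background and a summed level of 1267 to 1283 in WT and 1340 to 1396 in KO. Without Ctsk the sum was 381 to 406 in WT and 370 to 395 in KO. Of 9 stromal markers 2 were higher, Pdgfra (0.26, limma adjusted p = 0.0171) and Pdgfrb (0.14, adjusted p = 0.0481). Another 2 were lower, Nt5e and Col1a1 (-0.28 for both, adjusted p = 0.0152 and 0.0124). Of the 6 fits on 5 arrays, Pdgfra kept its call in 1, Pdgfrb in 0, and Nt5e and Col1a1 in 3 each. The summed level of the 9 was 10774 to 10962 in WT and 10015 to 10420 in KO. The lower KO sum rests on the brightest marker, the collagen gene Col1a1, and the other 8 summed to 5246 to 5472 in WT and 5619 to 5759 in KO. The part of these shifts in the Klf10 and Klf4 results was not tested, and in RNA from whole cultures fewer cells of a type and less RNA per cell cannot be told apart. Of the fits on 5 arrays, Kdr kept its call in the one that dropped WT replicate 2 (adjusted p of 0.0713 to 0.177 in the others) and Ctsk in none (0.0801 to 0.155). Kdr also lost it after a second quantile normalization (adjusted p = 0.0567) and cyclic loess (0.0579). Cd68 lost its call where WT replicate 1 or 3, or KO replicate 3, was dropped (adjusted p = 0.0537 to 0.0715).

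**Figure D4:**
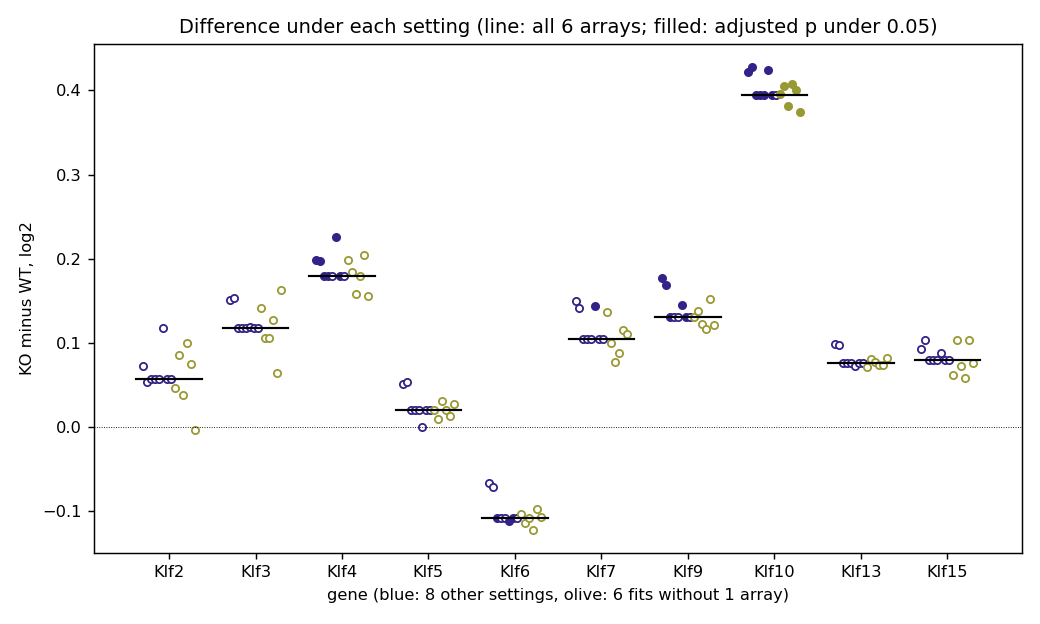
KO minus WT on the log2 scale (vertical axis) of each member with all 6 arrays (black line), under 8 other settings (blue) and in 6 fits that each left out 1 array (olive); filled points have an adjusted p under 0.05. Klf10 stayed between 0.37 and 0.43 and was filled in 13 of 14 points, Klf4 in 6 of 14 and Klf9 in 5 of 14.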

How the data were processed

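Total RNA from 6 samples was hybridised to single-colour Affymetrix gene arrays. The authors deposited log2 expression values. RMA, Affymetrix Expression Console and Partek are the tools listed in the submitters' processing notes, with no versions. RMA brings the arrays to a common scale, so a change shared by all genes cannot be seen, and its median polish can tie values within a group, though no member had 3 equal values. Array medians lay between 7.19 and 7.23, and arrays give no depth: their number limits the precision. Symbols came from the platform annotation, updated by gene identifier (21698 of 21789 probe sets with 1 symbol matched the GRCm38.p6 table). Each gene was read from its brightest probe set.

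Groups were taken from the sample titles. KO was compared with WT with limma 3.58.1 in R 4.3.3 (lmFit, eBayes, no covariates, two-sided) over all 19938 genes without a filter, with Benjamini-Hochberg adjustment and calls at an adjusted p under 0.05. Alternatives changed the scaling, the filter on dim genes, the probe sets, array weights, the variance prior, a replicate block and the arrays used. The members and lists were chosen with earlier results of these data known, so counts over them are descriptions. The named genes are the 10 members, called genes of each list (at most 4 by p), and Pparg, Cebpa, Cebpb, Cebpd, Egr2, Dlk1, Slc2a4, Nr3c1, Klf11, Klf12, Klf14 and Klf16. Ctbp1, Ctbp2, Mapk7, Mef2c, Tgfb1, Jun, Junb, Sp4, Cd36, Tsc22d3, Sgk1, Vwf and the ligase genes were added after their values were seen. So were markers below background.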

Additional observations from a re-analysis of the deposited data

How the results depend on the processing

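Over 14 alternatives, the count of 1457 called genes moved to 2192 with genes above background only, 870 with all probe sets tested together, 3418 with array weights, 2196 with a variance trend, and 189 to 932 without 1 array. The 2 called members became 4, 1, 5 and 4 under the first 4 of these settings, and 1 in each fit without 1 array. Klf10 ranged from 0.37 to 0.41 without 1 array and kept its call. Klf4 ranged from 0.16 to 0.20 there and lost its call each time, as with all probe sets tested together (0.18, adjusted p = 0.104). Klf9 passed after quantile normalization again (0.18), after cyclic loess (0.17), with genes above background only (0.13), with array weights (0.14) and with a variance trend (0.13). Klf6 passed with genes above background only (-0.11), array weights (-0.11) and a variance trend (-0.11), and Klf7 with array weights (0.14). Among members that did not pass, 2 turned sign, Klf5 with array weights (-0.00045) and Klf2 without KO replicate 3 (-0.0044; 0.10 at most without 1 array). Klf3, Klf13 and Klf15 kept their sign and passed under none of the 14. Klf11 (0.20), Cebpd (0.23) and Mef2c (0.16) passed with array weights. The median of all genes stayed between -0.0061 and 0.02.

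The labels do not say whether the replicate numbers pair the arrays. Deviations from the group means of same-numbered arrays correlated at -0.299, -0.262 and -0.015. No shared shift by number was seen, which cannot exclude a pairing. With the replicate block the number of called genes was 52 and of called members 0, with Klf10 at 0.39 (adjusted p = 0.0510) and Klf4 at 0.18 (adjusted p = 0.182).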
